A study of Arabidopsis thaliana with 18 samples.

Results

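Loss of PIF activity changed transcript levels differently in the hypocotyl and in the apical hook of dark-grown Arabidopsis thaliana seedlings, and the difference between the 2 organs is described here gene by gene. RNA sequencing gave 12 libraries for this, all those of hypocotyl and hook among the 18 of the series. They fall into 4 groups of 3: pifq hypocotyls, Col-0 hypocotyls, pifq hooks and Col-0 hooks. Col-0 is the wild-type accession, and pifq, in the Col-0 background, is labelled as -/- at each of the 4 loci PIF1, PIF3, PIF4 and PIF5. All seedlings were 4 days old and had grown at 22 °C in continuous darkness on MS medium with 3% sucrose. The labels name no alleles and do not say how the organs were cut or how many seedlings were pooled. Replicates carry only the numbers Bio1, Bio2 and Bio3 in their titles, with nothing said of separate cultures, so that p-values measure the spread between these libraries alone, which may be technical.

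PIFs are basic helix-loop-helix transcription factors that phytochromes remove in the light. In darkness they promote hypocotyl elongation and keep the hook closed and the cotyledons unopened. Dark-grown pifq seedlings therefore look as if they had seen light, with short hypocotyls and open hooks, and the hook of pifq is here the segment that the labels call hook. The hypocotyl lengthens mainly by cell expansion, while the hook is a bend in its upper end that rests on uneven growth and on auxin, ethylene and gibberellin.

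Levels are given in FPKM, fragments per kilobase of exon scaled to the size of the library, which corrects for gene length and depth. Depth, recovered from the steps between low values, was 13851955 to 20701103 reads or pairs, so that a single read over 1 kb of exon equalled 0.0483 to 0.0722 FPKM. The pifq effect in an organ is pifq minus Col-0 after taking log2(FPKM + 1), and it is too small for genes of low level. The interaction is the effect in hypocotyl minus the effect in hook. It is higher where pifq stands further up, or less far down, against Col-0 in the hypocotyl than in the hook, and lower in the opposite case. Genes with at least 1 FPKM in 3 of the 12 libraries were tested, 18994 in all, with limma in 1 fit of the 4 groups, and calls are made at an adjusted p under 0.05 (Benjamini-Hochberg). Interactions are given with their standard error (SE) from this fit, and levels as the values of the 3 libraries in the order of replicates 1, 2 and 3, or as mean ± SD (n = 3).

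Organ and genotype both separated the libraries. On the first principal component, with 55% of the variance, pifq hooks lay at -103.3, -81.4 and -104.7 in the order of replicates, Col-0 hooks at -13.4 to -6.8 and Col-0 hypocotyls at 85.2 to 97.9. Among pifq hypocotyls replicate 3 lay at 0, against 16.4 and 35 for the others. Summed markers of the cotyledon and leaf blade, 9 genes with none at 0 throughout, reached 247.8 to 264.6 FPKM in pifq hooks, against 108.2 to 136 FPKM in Col-0 hooks. The same sum was 56.6 to 75.4 FPKM in pifq hypocotyls, against 43.7 to 54.6 FPKM in Col-0 hypocotyls. In cotyledons, which are no part of the comparison, it was 249.5 to 270.2 FPKM in pifq and 295.1 to 319.9 FPKM in Col-0. Whether the pifq hook segments held blade tissue was not tested. Among 11 root markers PLT2, COBL9, RSL4 and NRT2.1 stayed under 1 FPKM in all 12 libraries, but others did not. Their sum was 8422 to 9822 FPKM in pifq hypocotyls, against 6666 to 7847 FPKM in Col-0 hypocotyls. In hooks it was 2683 to 3373 FPKM in pifq and 3095 to 3379 FPKM in Col-0. Most of this sum was PYK10, described at the end. In whole segments fewer cells of a type and less RNA per cell cannot be told apart.

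The interaction was called in 4573 genes, of which 2685 were higher (14.1% of those tested) and 1888 lower (9.94%). A call held with adjusted p under 0.05 after median-ratio scaling and without each of the 12 libraries in turn, always in the same direction, for 1777 higher genes (9.36%) and 1179 lower genes (6.21%). These are called stable here. Median-ratio scaling, which sets the typical gene equal between libraries, gave 2166 higher (11.4%) and 2372 lower (12.5%), so that the share of higher genes among the calls was 47.7% after it and 58.7% before. It moved the median interaction of all genes to -0.061, against 0.018 without it, the median hypocotyl effect to -0.023, against 0.176, and the median hook effect to 0.002, against 0.118. On both scales 4024 genes were called in the same direction.

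In the hypocotyl 6514 genes were higher in pifq (34.3%) and 2953 lower (15.5%), and in the hook 6666 were higher (35.1%) and 4350 lower (22.9%). The 2 effects share no library, and across the 18994 genes Pearson's r between them was 0.67 and Spearman's rho 0.66, with genes that are not independent of each other. In most called interactions the pifq effect was called in 1 organ only. A missing call does not show that an effect is absent. The counts that follow are without median-ratio scaling, which changed the calls in the hypocotyl, as given further below. Of the 2685 higher ones, 1024 fell in the hook with no call in the hypocotyl, 742 rose in the hypocotyl with no call in the hook, 363 fell in both and 169 rose in both. The remaining ones were 353 that rose in the hypocotyl and fell in the hook, and 34 with no call in either organ. Of the 1888 lower ones, 651 rose in the hook with no call in the hypocotyl, 583 rose in both, 419 fell in the hypocotyl with no call in the hook and 93 fell in both. A further 129 fell in the hypocotyl and rose in the hook, and 13 had no call in either.

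**Figure D1:**
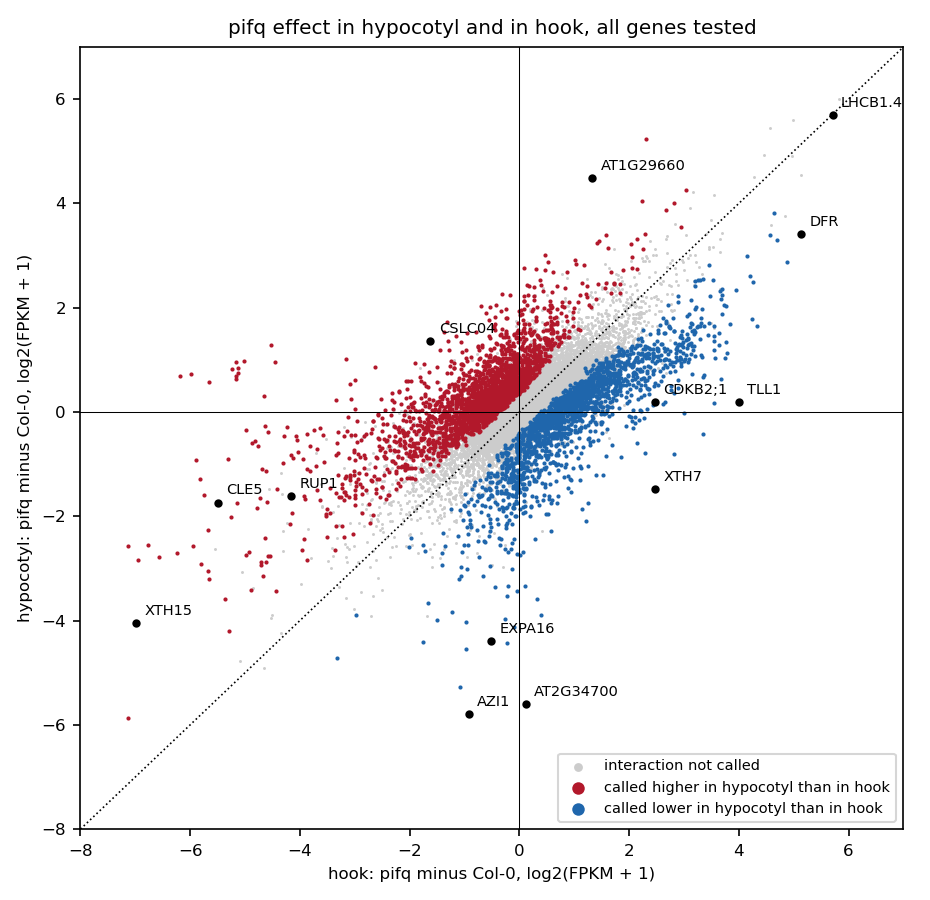
Effect of pifq in the hook (x axis) and in the hypocotyl (y axis), pifq minus Col-0 on the log2(FPKM + 1) scale, for the 18994 genes tested. Red genes have a higher and blue genes a lower called interaction, and the dotted line marks equal effects. XTH15 lies far down on both axes, AT2G34700 far down on the y axis and near 0 on the x axis, TLL1 far to the right at a hypocotyl effect near 0, and LHCB1.4 on the dotted line.

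PIF3, PIF5, PIF1 and PIF4 are the loci mutated in pifq. PIF3 was at 3.13, 4.15 and 4.46 FPKM in pifq hypocotyls, against 59.2, 56.2 and 40.1 FPKM in Col-0 hypocotyls. PIF3 was at 2.18, 2.03 and 1.8 FPKM in pifq hooks, against 90.8, 84.3 and 87.9 FPKM in Col-0 hooks. Both organs of pifq lay below both organs of Col-0 without overlap, and with the larger fall in the hook the interaction was 1.47 ± 0.21 (adjusted p = 0.000619). PIF5 fell in both organs as well, to 4.45 ± 0.718 FPKM in pifq hypocotyls, against 8.12 ± 1.61 FPKM in Col-0 hypocotyls, and to 3.85 ± 0.565 FPKM in pifq hooks, against 15.9 ± 0.346 FPKM in Col-0 hooks, with an interaction of 1.07 (adjusted p = 0.00362).

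PIF1 and PIF4 were not lower in every organ of the mutant; a mutated locus can still be transcribed, and the level says nothing of protein. PIF1 was at 18.3, 16.1 and 17.2 FPKM in pifq hypocotyls, against 4.95, 9.98 and 10.3 FPKM in Col-0 hypocotyls. PIF1 stood at 11.8, 15.4 and 9.19 FPKM in pifq hooks, against 19.3, 21.2 and 20.5 FPKM in Col-0 hooks. The groups did not overlap in either organ: it rose in the hypocotyl and fell in the hook, with an interaction of 1.73 ± 0.32 (adjusted p = 0.00291). PIF4 rose in the hypocotyl, to 18.9 ± 2.68 FPKM in pifq hypocotyls, against 6.3 ± 1.73 FPKM in Col-0 hypocotyls, and was at 17 ± 2.7 FPKM in pifq hooks, against 14.4 ± 0.621 FPKM in Col-0 hooks. PIF8, which is not among the mutated loci, had 1.74 (adjusted p = 0.00105), at 34 ± 4.95 FPKM in pifq hypocotyls, against 9.64 ± 0.496 FPKM in Col-0 hypocotyls, and at 16.6 ± 4.69 FPKM in pifq hooks, against 16.8 ± 3.89 FPKM in Col-0 hooks. PIF7, also not mutated, rose in both organs by a log2 of 2.52 in the hypocotyl and 2.85 in the hook, and its interaction of -0.33 (adjusted p = 0.342) was not called. Of the 7 genes of the PIF family and its relative SPT that were tested 5 were called higher and 0 lower, on both scales. Over all genes 14.1% were called higher. The 5 were the mutated PIF1, PIF3, PIF4 and PIF5, and PIF8. Of the loci not mutated, PIF7 and SPT were not called.

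Genes known from the literature to be switched on by PIFs had higher interactions wherever these were called, through different forms: some fell further in the hook, others rose in the hypocotyl. Of 24 such genes tested, 15 were called higher and 0 lower (13 and 0 after median-ratio scaling), and their median interaction was 1.15, against 0.02 over all genes. The shares over all genes were 14.1% higher and 9.94% lower. XTH15, a xyloglucan endotransglucosylase/hydrolase that remodels the wall, had the largest interaction of the list. XTH15 was at 15.9, 13 and 12 FPKM in pifq hypocotyls, against 367, 143 and 263 FPKM in Col-0 hypocotyls. XTH15 stood at 2.61, 3.11 and 3.01 FPKM in pifq hooks, against 613, 412 and 476 FPKM in Col-0 hooks. Every pifq library lay below every Col-0 library of its organ, and pifq hooks were the lowest group, below pifq hypocotyls, while Col-0 hooks were the highest. The log2 effect was -4.05 in the hypocotyl and -6.99 in the hook, and the interaction 2.93 ± 0.38 (adjusted p = 0.000379).

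HFR1, an atypical helix-loop-helix protein that restrains PIFs, fell in both organs, with log2 effects of -3.43 in the hypocotyl and -4.44 in the hook and an interaction of 1.01 (adjusted p = 0.00412). PRE5, a small non-DNA-binding helix-loop-helix protein that promotes cell elongation, was at 5.81, 6.38 and 7.69 FPKM in pifq hypocotyls, against 4.45, 3.25 and 4.44 FPKM in Col-0 hypocotyls. PRE5 was at 2.29, 4.92 and 1.51 FPKM in pifq hooks, against 12.2, 17.4 and 12.8 FPKM in Col-0 hooks. Its fall was thus called in the hook alone, and its interaction was 2.63 ± 0.37 (adjusted p = 0.000591). ST2A, a hydroxyjasmonate sulfotransferase, fell in both organs, with log2 effects of -1.17 in the hypocotyl and -2.92 in the hook. PKS2, a phytochrome substrate, rose in both, to 23.4 ± 3.46 FPKM in pifq hypocotyls, against 5.04 ± 0.0776 FPKM in Col-0 hypocotyls, and to 25.1 ± 2.71 FPKM in pifq hooks, against 16.3 ± 2.95 FPKM in Col-0 hooks, with an interaction of 1.41 (adjusted p = 0.000599).

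Genes of the early auxin response had many higher interactions, and several of them rose in the pifq hypocotyl with no rise in the hook. Aux/IAA genes encode short-lived repressors that auxin both removes and induces, GH3 genes encode enzymes that conjugate auxin, and SAUR genes encode small proteins, many of which promote cell expansion. Of 28 Aux/IAA and GH3 genes, 16 were called higher and 2 lower (14 and 5 after median-ratio scaling), with a median interaction of 0.93. In the hypocotyl 20 of them rose and 3 fell, and in the hook 9 rose and 6 fell; over all genes 34.3% rose and 15.5% fell in the hypocotyl, and 35.1% rose and 22.9% fell in the hook. With organelle-encoded genes removed 1 was called lower. The 2 lower calls were 1 without any replicate of Col-0 hooks, replicate 1 of Col-0 hypocotyls, or 2 or 3 of pifq hypocotyls. Of 38 SAUR genes, 20 were called higher and 6 lower (20 and 6 after median-ratio scaling), with a median of 1.52. In the hypocotyl 22 SAUR genes rose and 6 fell, and in the hook 9 rose and 7 fell. The difference between the organs in these counts was not tested for either group. In the interaction 14.1% of all genes were called higher and 9.94% lower.

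GH3.6 was at 75.1, 72.4 and 84.8 FPKM in pifq hypocotyls, against 20.4, 23 and 14.4 FPKM in Col-0 hypocotyls. GH3.6 stood at 30.9, 48 and 36 FPKM in pifq hooks, against 45.3, 42.6 and 46 FPKM in Col-0 hooks. The hypocotyl groups stood apart and the hook groups overlapped, and the interaction was 2.21 ± 0.25 (adjusted p = 0.000174). IAA4 rose in the hypocotyl and fell in the hook, with log2 effects of 0.78 in the hypocotyl and -0.52 in the hook and an interaction of 1.3 (adjusted p = 0.00142). GH3.5 did the same, at 0.58 in the hypocotyl and -0.72 in the hook, with an interaction of 1.3 (adjusted p = 0.000262).

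IAA19, a classical target of both auxin and PIFs, had an interaction of 1.53 (adjusted p = 0.0392) that was less firm. IAA19 was at 76, 69.2 and 80.7 FPKM in pifq hypocotyls, against 50.2, 18.4 and 61 FPKM in Col-0 hypocotyls. IAA19 stood at 29, 43.3 and 26.4 FPKM in pifq hooks, against 43.4, 55.7 and 48.2 FPKM in Col-0 hooks. The hook groups nearly touched without overlap. After median-ratio scaling the value was 1.44 with an adjusted p of 0.0502. It was not called without any replicate of pifq hypocotyls, replicate 1 or 3 of pifq hooks, or any replicate of Col-0 hooks. GH3.9 went the other way, with -1.49 (adjusted p = 0.000321), at 1.82 ± 0.25 FPKM in pifq hypocotyls, against 0.0385 ± 0.038 FPKM in Col-0 hypocotyls, and 8.37 ± 1.25 FPKM in pifq hooks, against 0.221 ± 0.0703 FPKM in Col-0 hooks. It rose in both organs, and with a pseudocount of 0.1 in place of 1 its interaction was -0.91 (adjusted p = 0.153).

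The SAUR19 to SAUR24 cluster on chromosome 5 and the SAUR26 to SAUR28 cluster on chromosome 3 had called higher interactions in every member. SAUR19 was at 20.2, 26.3 and 23.9 FPKM in pifq hypocotyls, against 6.49, 3.08 and 5.84 FPKM in Col-0 hypocotyls. SAUR19 stood at 9.4, 12.2 and 3.66 FPKM in pifq hooks, against 11.4, 13.6 and 14 FPKM in Col-0 hooks. It rose in the hypocotyl, where the groups stood apart, and in the hook replicates 2 and 3 of pifq were far apart from each other. Its interaction was 2.73 ± 0.47 (adjusted p = 0.00177). The interactions of SAUR20 to SAUR24 ran from 2.04 to 2.55, and those of SAUR26, SAUR27 and SAUR28 were 2.27, 2.48 and 2.59, each called. SAUR19 to SAUR24 have near-identical sequences and how shared reads were counted is not given in the sources used here, so that their single values are uncertain.

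SAUR15 had the largest interaction of the family. SAUR15 was at 6.1, 9.01 and 8.69 FPKM in pifq hypocotyls, against 0.933, 1.4 and 3.14 FPKM in Col-0 hypocotyls. SAUR15 stood at 1.62, 2.96 and 0.428 FPKM in pifq hooks, against 4.72, 6.03 and 4.73 FPKM in Col-0 hooks. It rose in the hypocotyl and fell in the hook, with no overlap in either organ, and the interaction was 3.04 ± 0.49 (adjusted p = 0.0013). SAUR25 followed another course: it was at 2.25 ± 0.508 FPKM in pifq hypocotyls, against 4.76 ± 1.95 FPKM in Col-0 hypocotyls, and at 0.108 ± 0.0447 FPKM in pifq hooks, against 10.4 ± 3.74 FPKM in Col-0 hooks, and fell in both organs. SAUR41 had the largest lower interaction, -2.71 ± 0.36 (adjusted p = 0.000397). SAUR41 was at 3.16, 1.57 and 1.55 FPKM in pifq hypocotyls, against 13.6, 15.1 and 17.2 FPKM in Col-0 hypocotyls, and its pifq hooks at 1.86 ± 0.371 FPKM overlapped with Col-0 hooks at 1.44 ± 0.822 FPKM.

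SAUR17 and SAUR50 are known to act in opposite directions on the opening of hook and cotyledons. SAUR17 was at 0.365, 0 and 0 FPKM in pifq hypocotyls, against 6.03, 3.36 and 13.2 FPKM in Col-0 hypocotyls. SAUR17 stood at 1.03, 0.42 and 0 FPKM in pifq hooks, against 42.4, 26 and 30.8 FPKM in Col-0 hooks. Pifq was near 0 in both organs, so that the interaction of 1.78 (adjusted p = 0.0318) follows the levels in Col-0, and with a pseudocount of 0.1 it was 1.09 (adjusted p = 0.559). It was not called without replicate 1 of pifq hypocotyls, 1 or 2 of Col-0 hypocotyls, 2 or 3 of pifq hooks, or 1 or 3 of Col-0 hooks. SAUR50 rose in both organs, to 43.2 ± 2.98 FPKM in pifq hypocotyls, against 13 ± 3.01 FPKM in Col-0 hypocotyls, and to 54.1 ± 8.23 FPKM in pifq hooks, against 21.9 ± 1.91 FPKM in Col-0 hooks, and its interaction of 0.42 (adjusted p = 0.197) was not called.

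**Figure D2:**
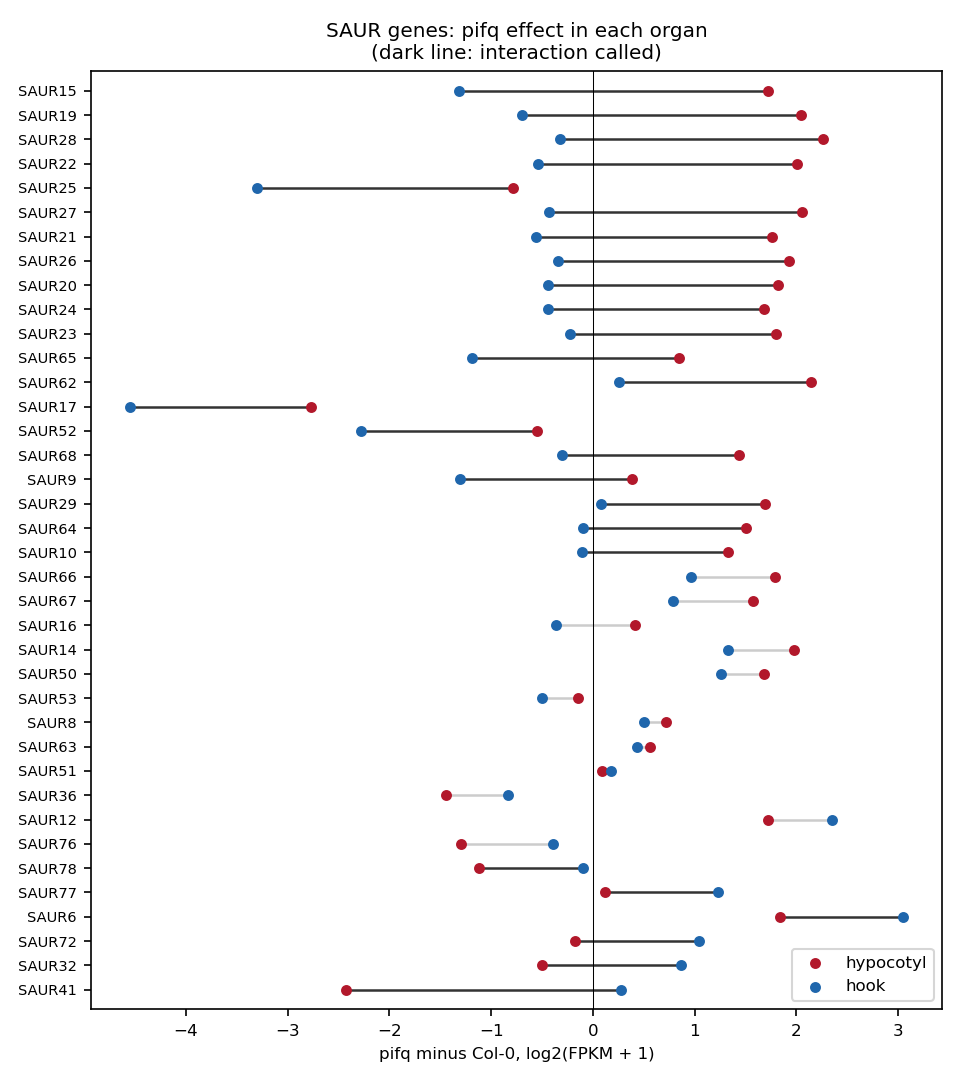
Effect of pifq (x axis, pifq minus Col-0 on the log2(FPKM + 1) scale) in hypocotyl (red) and hook (blue) for the 38 SAUR genes tested, ordered by the interaction. Dark lines join the 26 genes with a called interaction, from SAUR15 at the top to SAUR41 at the bottom, and for SAUR19 to SAUR24 and SAUR26 to SAUR28 red points lie right of 0 and blue points left of it, while SAUR25, SAUR17 and SAUR52 lie left of 0 in both organs.

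PIFs bind the G-box CACGTG and the PBE-box CACATG, and the auxin response element TGTCTC is bound by auxin response factors. Each was searched on both strands in the 250 bases before the annotated gene start in TAIR10.1, whose nuclear sequence is that of TAIR10. No 2 matches overlap in the windows printed here. Over the 18427 tested protein-coding genes with such a window, 7.67% held a G-box, 11.2% a PBE-box and 10.6% an auxin response element. Among genes with a higher interaction the shares were 9.26%, 17% and 10.7%, and among genes with a lower one 7.04%, 9.02% and 11.3%. Of the 38 SAUR windows 21 held a PBE-box (55.3%) and 0 a G-box. They were 14 of the 20 SAUR genes with a higher interaction, 1 of the 6 with a lower one and 6 of the 12 not called. A match is a description of the letters, and related clusters share their sequence.

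The windows of SAUR15 (chr4:18125807-18126056, plus strand), SAUR19 (chr5:5963406-5963655, minus strand), SAUR22 (chr5:5975088-5975337, minus strand) and SAUR26 (chr3:982807-983056, plus strand) show these letters in genes that rose in the pifq hypocotyl. SAUR41 (chr1:5645444-5645693, minus strand) is shown beside them as the family's largest lower interaction, and IAA19 (chr3:5263751-5264000, plus strand) and PRR9 (chr2:19232357-19232606, plus strand) as named genes that hold several kinds of motif. All are from the TAIR10.1 reference, 5′ to 3′ towards the gene start, with G-boxes, PBE-boxes and auxin response elements of either strand in capitals:
SAUR15: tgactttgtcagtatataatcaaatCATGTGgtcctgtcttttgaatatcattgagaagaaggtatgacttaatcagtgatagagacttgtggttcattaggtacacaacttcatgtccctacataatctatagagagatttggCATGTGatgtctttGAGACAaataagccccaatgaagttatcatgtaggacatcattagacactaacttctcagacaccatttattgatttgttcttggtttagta
SAUR19: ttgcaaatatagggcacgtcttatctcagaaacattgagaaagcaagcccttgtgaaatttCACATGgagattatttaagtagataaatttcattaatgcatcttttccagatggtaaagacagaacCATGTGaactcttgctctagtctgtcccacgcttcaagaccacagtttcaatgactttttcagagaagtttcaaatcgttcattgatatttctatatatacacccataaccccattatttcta
SAUR22: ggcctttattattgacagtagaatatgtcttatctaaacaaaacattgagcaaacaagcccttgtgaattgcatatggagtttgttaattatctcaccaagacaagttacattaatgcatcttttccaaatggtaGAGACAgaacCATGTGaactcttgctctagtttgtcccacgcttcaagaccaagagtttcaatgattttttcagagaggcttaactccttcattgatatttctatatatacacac
SAUR26: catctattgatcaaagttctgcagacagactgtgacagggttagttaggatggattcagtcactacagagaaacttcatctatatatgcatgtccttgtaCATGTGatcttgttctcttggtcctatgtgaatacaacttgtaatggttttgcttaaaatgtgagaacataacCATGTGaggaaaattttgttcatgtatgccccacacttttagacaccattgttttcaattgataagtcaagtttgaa
SAUR41: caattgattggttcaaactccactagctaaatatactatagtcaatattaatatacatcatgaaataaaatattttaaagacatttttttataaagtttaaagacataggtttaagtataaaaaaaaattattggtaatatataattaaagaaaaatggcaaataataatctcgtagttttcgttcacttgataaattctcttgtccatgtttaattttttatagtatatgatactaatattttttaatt
IAA19: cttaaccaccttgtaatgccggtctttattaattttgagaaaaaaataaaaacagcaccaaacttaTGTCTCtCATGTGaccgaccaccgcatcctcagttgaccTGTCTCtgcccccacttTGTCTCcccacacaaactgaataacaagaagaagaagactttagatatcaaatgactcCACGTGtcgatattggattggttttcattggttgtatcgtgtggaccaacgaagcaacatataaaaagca
PRR9: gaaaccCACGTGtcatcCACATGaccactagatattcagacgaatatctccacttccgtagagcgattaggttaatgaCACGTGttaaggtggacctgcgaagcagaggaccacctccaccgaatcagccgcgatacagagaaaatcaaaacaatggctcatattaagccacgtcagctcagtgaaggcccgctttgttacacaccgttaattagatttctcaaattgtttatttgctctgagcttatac
SAUR15 holds 2 PBE-boxes and 1 auxin response element, SAUR19 and SAUR26 2 PBE-boxes each, and SAUR22 1 PBE-box and 1 auxin response element. IAA19 holds 3 auxin response elements, 1 PBE-box and 1 G-box, PRR9 2 G-boxes and 1 PBE-box, and the window of SAUR41 none of the 3. The printed windows of SAUR genes with a higher interaction all hold a PBE-box. Those of SAUR20, SAUR23 and SAUR24, from the same cluster as SAUR19 and not printed, hold none.

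YUC genes encode flavin monooxygenases that make indole-3-acetic acid, and YUC5, YUC9 and YUC2 had lower interactions, against a higher one for YUC3. YUC5 was at 0.265, 0.335 and 0.268 FPKM in pifq hypocotyls, against 4.22, 3.53 and 4.37 FPKM in Col-0 hypocotyls. YUC5 stood at 0.496, 0.622 and 1.04 FPKM in pifq hooks, against 0.156, 0.148 and 0.262 FPKM in Col-0 hooks. Col-0 hypocotyls were the one group with a clear level; pifq fell in the hypocotyl and rose in the hook, both without overlap, and the interaction was -2.48 ± 0.2 (adjusted p = 3.74e-05). YUC9 was at 0.747 ± 0.546 FPKM in pifq hypocotyls, against 4.82 ± 1.65 FPKM in Col-0 hypocotyls, and at 0.888 ± 0.565 FPKM in pifq hooks, against 0.149 ± 0.174 FPKM in Col-0 hooks, with an interaction of -2.42 (adjusted p = 0.00184). YUC8, which PIFs are known to induce, had -0.36 (adjusted p = 0.259) and was not called.

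Among transport genes ABCB19, PIN2, PIN3, PIN4, PIN7, LAX3 and WAG2 were higher and LAX1 lower. ABCB19, an auxin exporter of the stem, was at 128, 121 and 125 FPKM in pifq hypocotyls, against 70.2, 83.3 and 89.4 FPKM in Col-0 hypocotyls. ABCB19 stood at 60.2, 85.1 and 67.6 FPKM in pifq hooks, against 119.9, 138 and 151 FPKM in Col-0 hooks. It rose in the hypocotyl and fell in the hook, with no overlap, and the interaction was 1.56 ± 0.19 (adjusted p = 0.000285). PIN3, an exporter of lateral auxin flow, rose in the hypocotyl, to 125 ± 9.86 FPKM in pifq hypocotyls, against 68.2 ± 13.8 FPKM in Col-0 hypocotyls, and was at 110 ± 8.84 FPKM in pifq hooks, against 133 ± 16.9 FPKM in Col-0 hooks. WAG2, a kinase that acts on PIN proteins and on hook opening, fell in both organs, with log2 effects of -1.23 in the hypocotyl and -2.65 in the hook. Over the 23 genes of synthesis and transport 8 were called higher and 5 lower (7 and 5 after median-ratio scaling), and the median was 0.2. Of all genes 14.1% were called higher and 9.94% lower.

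Ethylene and hook genes mostly fell in both organs, 14 of 24 in the hypocotyl and 18 in the hook. Over all genes 15.5% fell in the hypocotyl and 22.9% in the hook. Where the organs differed in this list, the fall was mostly the larger in the hook. In the interaction 12 were called higher and 1 lower (9 and 1 after median-ratio scaling), against 14.1% and 9.94% of all genes. The median interaction was 0.49. The count of 12 was 7 without replicate 3 of Col-0 hooks, 7 without replicate 1 of pifq hooks and 6 without replicate 2 of pifq hypocotyls. ARGOS, which lowers ethylene sensitivity and promotes organ growth, was at 29.6, 34.1 and 33.9 FPKM in pifq hypocotyls, against 48.8, 32.3 and 31.1 FPKM in Col-0 hypocotyls. ARGOS stood at 15.4, 20.5 and 16.9 FPKM in pifq hooks, against 73.4, 75.3 and 81.9 FPKM in Col-0 hooks. The hypocotyl groups overlapped and the hook groups did not, and the interaction was 1.91 ± 0.23 (adjusted p = 0.000235). ARL, its relative, fell in both organs, with log2 effects of -1.49 in the hypocotyl and -2.8 in the hook and an interaction of 1.31 (adjusted p = 0.000235).

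ACC oxidases make ethylene from its precursor, and the family split. ACO4 was at 73.8, 59.4 and 55 FPKM in pifq hypocotyls, against 157, 119 and 121 FPKM in Col-0 hypocotyls. ACO4 stood at 99.3, 93.3 and 99.5 FPKM in pifq hooks, against 53.7, 59.7 and 49.7 FPKM in Col-0 hooks. It fell in the hypocotyl and rose in the hook, with no overlap, and the interaction was -1.9 ± 0.19 (adjusted p = 0.000101). ACO1 had 1.33 (adjusted p = 0.000599), with a fall in both organs. HLS1, an acetyltransferase-like protein without which no hook forms, fell in both organs. HLS1 was at 1.99, 1.77 and 0.756 FPKM in pifq hypocotyls, against 6.2, 5.2 and 10.7 FPKM in Col-0 hypocotyls, and at 2.64, 2.67 and 2.67 FPKM in pifq hooks, against 24, 14.2 and 20.083 FPKM in Col-0 hooks. Its interaction of 0.73 ± 0.37 (adjusted p = 0.175) was not called. AT1G72290, a Kunitz-type protease inhibitor known from the hook, was listed at 0 in all 6 pifq libraries, and at 5.23, 4.99 and 6.1 FPKM in Col-0 hypocotyls and 27, 28.2 and 33.6 FPKM in Col-0 hooks. Its interaction of 2.25 (adjusted p = 2.25e-05) is therefore the difference between the organs of Col-0. Voom did not call it (adjusted p = 0.0937).

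Gibberellin genes gave 23 tests, of which 10 were called higher and 3 lower (8 and 4 after median-ratio scaling, and 9 and 1 with voom), with a median of 0.42. Of all genes 14.1% were called higher and 9.94% lower. Gibberellin 2-oxidases inactivate the hormone. GA2OX8 was at 2.46, 3.77 and 5.01 FPKM in pifq hypocotyls, against 12, 6.9 and 4.4 FPKM in Col-0 hypocotyls. GA2OX8 stood at 0.16, 0.655 and 0.185 FPKM in pifq hooks, against 20.082, 20.104 and 28.1 FPKM in Col-0 hooks. The 3 pifq hooks lay under 1 FPKM and far below the 3 Col-0 hooks, while the hypocotyl groups overlapped, and the interaction was 3.33 ± 0.42 (adjusted p = 0.000328). GA2OX7 had its high level in Col-0 hypocotyls, at 1.96 ± 1.02 FPKM in pifq hypocotyls, against 19 ± 5.99 FPKM in Col-0 hypocotyls, and was at 0.194 ± 0.227 FPKM in pifq hooks, against 1.0 ± 0.549 FPKM in Col-0 hooks. Its interaction of -2.05 (adjusted p = 0.00681) was -1.21 (adjusted p = 0.36) with a pseudocount of 0.1. GA20OX1, which makes the precursors of active gibberellin, rose in the hypocotyl and was at 5.39 ± 2.02 FPKM in pifq hooks, against 8.37 ± 1.96 FPKM in Col-0 hooks, with an interaction of 1.56 (adjusted p = 0.00504). GASA4, a gibberellin-induced peptide gene of high level, fell in both organs, to 463 ± 31.9 FPKM in pifq hypocotyls, against 2365 ± 347 FPKM in Col-0 hypocotyls, and to 1477 ± 65.9 FPKM in pifq hooks, against 12200 ± 1490 FPKM in Col-0 hooks. Its interaction of 0.7 (adjusted p = 0.0409) had an adjusted p of 0.063 after median-ratio scaling. It was not called without any replicate of pifq hypocotyls, replicate 1 or 2 of Col-0 hypocotyls, 1 or 3 of pifq hooks, or 2 or 3 of Col-0 hooks.

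Among 19 brassinosteroid genes 5 were called higher and 0 lower (4 and 1 after median-ratio scaling), with a median of 0.44. Of all genes 14.1% were called higher and 9.94% lower. The count of 5 was 8 without replicate 2 of pifq hooks, and 3 without replicate 1 of pifq hypocotyls, replicate 1 of pifq hooks or replicate 3 of Col-0 hooks. The lower count of 0 was 1 without replicate 2 of pifq hypocotyls, 1 of Col-0 hypocotyls or 2 of pifq hooks. BEE1, a helix-loop-helix protein induced by brassinosteroids, was at 6.56, 5.34 and 7.93 FPKM in pifq hypocotyls, against 7.74, 6.0 and 7.46 FPKM in Col-0 hypocotyls. BEE1 stood at 6.87, 5.88 and 4.4 FPKM in pifq hooks, against 14.9, 14.8 and 17.3 FPKM in Col-0 hooks. It fell in the hook alone, and the interaction was 1.23 ± 0.23 (adjusted p = 0.00321).

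Wall-loosening genes with a called interaction were mostly higher. Expansins loosen the wall without cutting it, and XTHs cut and rejoin xyloglucan. Of 25 tested, 14 were called higher and 3 lower (12 and 3 after median-ratio scaling), with a median of 1.12; in the hypocotyl 10 rose and 6 fell, and in the hook 5 rose and 11 fell. Over all genes the falls were 15.5% in the hypocotyl and 22.9% in the hook, and the rises 34.3% and 35.1%. The difference in these counts was not tested for the group. An interaction was called higher in 14.1% of all genes and lower in 9.94%. EXPA11 was at 263, 255 and 281 FPKM in pifq hypocotyls, against 380.3, 228 and 314 FPKM in Col-0 hypocotyls. EXPA11 stood at 60.5, 99.2 and 47.8 FPKM in pifq hooks, against 401, 602 and 579 FPKM in Col-0 hooks. The hypocotyl groups overlapped, and every pifq hook lay below every Col-0 hook, with an interaction of 2.78 ± 0.36 (adjusted p = 0.000382). EXPA8 had 2.67 (adjusted p = 0.000556) and XTH19 2.55 (adjusted p = 0.000209), both with a fall in the hook and no call in the hypocotyl.

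Other members moved in both organs. EXPA9 fell in both, to 18.4 ± 7.07 FPKM in pifq hypocotyls, against 175 ± 48.3 FPKM in Col-0 hypocotyls, and to 9.62 ± 1.1 FPKM in pifq hooks, against 542 ± 120 FPKM in Col-0 hooks. EXPA5 rose in both, to 320 ± 31.8 FPKM in pifq hypocotyls, against 18.4 ± 2.65 FPKM in Col-0 hypocotyls, and to 142 ± 44.4 FPKM in pifq hooks, against 28.6 ± 3.7 FPKM in Col-0 hooks, with interactions of 2.46 (adjusted p = 0.000919) for EXPA9 and 1.82 (adjusted p = 0.000998) for EXPA5. EXPA16 was the largest lower interaction of the list, -3.89 ± 0.4 (adjusted p = 0.000105). EXPA16 was at 3.22, 1.84 and 1.39 FPKM in pifq hypocotyls, against 57.9, 55.5 and 80.5 FPKM in Col-0 hypocotyls. EXPA16 stood at 8.04, 4.71 and 8.81 FPKM in pifq hooks, against 13.7, 11.3 and 7.12 FPKM in Col-0 hooks. Its high level was that of Col-0 hypocotyls alone, and the fall was called there and not in the hook.

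Most cellulose synthesis genes of the growing wall fell in the hook. Of 8 tested, 6 were called higher and 1 lower (6 and 1 after median-ratio scaling), and 4 fell in the hypocotyl and 7 in the hook, against 15.5% and 22.9% of all genes. CESA5, a catalytic subunit, was the one that rose in the hook, with a log2 effect of 0.32 that was not called after median-ratio scaling. The lower count was 2 without replicate 3 of Col-0 hooks. In the interaction 14.1% of all genes were called higher and 9.94% lower. CSI1, which ties the synthase complex to microtubules, was at 42.5, 46.3 and 45.4 FPKM in pifq hypocotyls, against 40.2, 57.9 and 45.9 FPKM in Col-0 hypocotyls. CSI1 stood at 26.7, 29.6 and 31.7 FPKM in pifq hooks, against 61.5, 70.1 and 76.8 FPKM in Col-0 hooks. It fell in the hook without overlap and its interaction was 1.13 ± 0.19 (adjusted p = 0.00146). CESA3, a catalytic subunit, had 0.77 (adjusted p = 0.0055). CESA2, another subunit, was the exception at -0.91 (adjusted p = 0.00171), with 36.3 ± 1.69 FPKM in pifq hypocotyls, against 114 ± 17.4 FPKM in Col-0 hypocotyls, and 21.1 ± 0.875 FPKM in pifq hooks, against 34.8 ± 2.74 FPKM in Col-0 hooks.

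**Figure D3:**
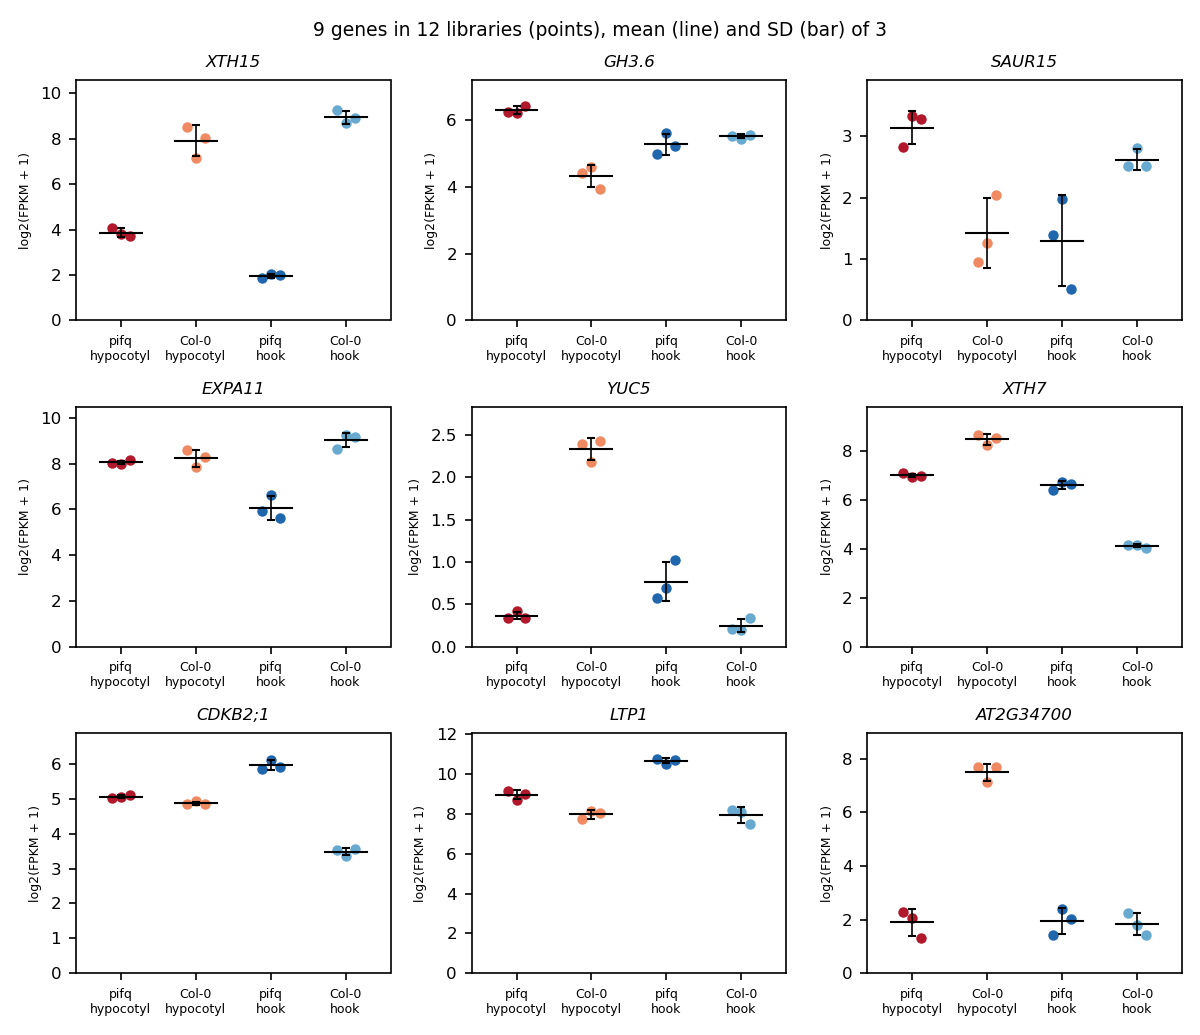
Levels of 9 genes in the 12 libraries, on the log2(FPKM + 1) scale (y axis), with the 4 groups on the x axis; points are libraries 1, 2 and 3 from left to right, lines means and bars SD (n = 3). XTH15 is lowest in pifq hooks, GH3.6 and SAUR15 are high in pifq hypocotyls, EXPA11 is low in pifq hooks, YUC5 and AT2G34700 are high in Col-0 hypocotyls alone, and XTH7 has opposite effects in the 2 organs, while CDKB2;1 and LTP1 are highest in pifq hooks.

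Most cell division genes rose in both organs, and where the interaction was called the hook had the larger rise. Of 24 tested, 0 were called higher and 15 lower (0 and 16 after median-ratio scaling), with a median interaction of -1.09. In the hypocotyl 21 rose and in the hook 23, and 0 fell, while over all genes 34.3% and 35.1% rose. A lower interaction was called in 9.94% of all genes. CDKB2;1, a mitotic cyclin-dependent kinase, was at 31.5, 32.2 and 33.5 FPKM in pifq hypocotyls, against 27.8, 29.3 and 27.8 FPKM in Col-0 hypocotyls. CDKB2;1 stood at 56.1, 68.4 and 59.1 FPKM in pifq hooks, against 10.5, 9.3 and 10.7 FPKM in Col-0 hooks. Pifq hooks were the highest group and Col-0 hooks the lowest, with no overlap, and the interaction was -2.29 ± 0.13 (adjusted p = 8.82e-06). The effect on CDKB2;1 in the hypocotyl, a log2 of 0.19, was not called (adjusted p = 0.113). CYCB1;2, a mitotic cyclin, was at 15.2 ± 0.649 FPKM in pifq hypocotyls, against 5.91 ± 0.645 FPKM in Col-0 hypocotyls, and at 40.5 ± 4.37 FPKM in pifq hooks, against 3.99 ± 0.247 FPKM in Col-0 hooks, with -1.82 (adjusted p = 3.88e-05). CDC20.1, an activator of the anaphase-promoting complex, had -1.92 (adjusted p = 3.74e-05), and KN, the syntaxin of the cell plate, -1.65 (adjusted p = 0.00142). MCM2, MCM3 and MCM5, subunits of the replicative helicase, rose in both organs and had interactions of -0.22, -0.56 and -0.55, none called.

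Markers of blade, stomata and xylem also stood higher in pifq hooks. Of 9 blade markers 0 were called higher and 4 lower, of 14 stomatal lineage markers 0 and 5, and of 12 xylem markers 0 and 8. Over all genes 14.1% were called higher and 9.94% lower. The summed stomatal markers were 168.5 to 202.2 FPKM in pifq hooks, against 63.5 to 89.6 FPKM in Col-0 hooks, and 48.8 to 67.1 FPKM in pifq hypocotyls, against 32.5 to 35.3 FPKM in Col-0 hypocotyls. The summed xylem markers were 133.3 to 173.9 FPKM in pifq hooks, against 83.2 to 92.8 FPKM in Col-0 hooks, and 372.9 to 406.8 FPKM in pifq hypocotyls, against 399 to 464.3 FPKM in Col-0 hypocotyls. None of these 35 markers was at 0 in all 12 libraries. After median-ratio scaling 6 blade, 4 stomatal and 9 xylem markers were called lower, and voom called 2, 0 and 8 lower, so that no stomatal call was left with voom. These sums move with the division, photosynthesis and wall lists, and their part in those results was not tested.

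YAB2, a transcription factor of the lower leaf side, was at 3.61, 2.93 and 3.1 FPKM in pifq hypocotyls, against 1.69, 1.6 and 2.04 FPKM in Col-0 hypocotyls. YAB2 stood at 17.4, 22.1 and 23.1 FPKM in pifq hooks, against 5.95, 5.25 and 4.94 FPKM in Col-0 hooks. The 3 pifq hooks lay above all other libraries, with an interaction of -1.17 ± 0.18 (adjusted p = 0.00113). BASL, a polarity protein of dividing stomatal precursors, was at 1.18 ± 0.659 FPKM in pifq hypocotyls, against 0.0292 ± 0.0505 FPKM in Col-0 hypocotyls, and at 8.06 ± 2.0 FPKM in pifq hooks, against 0.25 ± 0.198 FPKM in Col-0 hooks; its interaction of -1.8 (adjusted p = 0.00181) was -1.44 (adjusted p = 0.185) with a pseudocount of 0.1. VND6, a switch for xylem vessel formation, had -1.15 (adjusted p = 0.00782), and XCP1, a protease of dying vessel cells, -0.9 (adjusted p = 0.00229). The xylem count of 8 was 4 without replicate 3 of Col-0 hooks, 5 without replicate 3 of pifq hooks and 5 without replicate 2 of pifq hypocotyls. Among 10 meristem and boundary markers KNAT1, a homeobox gene of the stem, was higher at 1.29 (adjusted p = 0.0164) and LSH3, a boundary gene, lower at -1.84 (adjusted p = 0.000186); LOB, a boundary gene too, was the other lower call, and 4 were lower without replicate 1 of pifq hooks or of pifq hypocotyls. Among 9 epidermal markers LTP1, a lipid transfer protein, was at 501 ± 77.1 FPKM in pifq hypocotyls, against 250.5 ± 34.7 FPKM in Col-0 hypocotyls, and at 1620 ± 144 FPKM in pifq hooks, against 248 ± 62.3 FPKM in Col-0 hooks, with -1.74 (adjusted p = 0.00119), and CER1, of wax alkane synthesis, had 1.05 (adjusted p = 0.013); of 3 higher calls in this list there were 5 without replicate 2 of Col-0 hypocotyls. Limma called no interaction among 5 root, 4 phloem and 7 embryo storage markers, while it called 14.1% of all genes higher and 9.94% lower. At an unadjusted p under 0.05 there were 0 among root, 0 among phloem and 3 among storage markers, and voom called 0, 0 and 0.

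Most photosynthesis genes rose in both organs, and most had no called interaction. Over all genes 34.3% rose in the hypocotyl and 35.1% in the hook. A higher interaction was called in 14.1% of all genes and a lower one in 9.94%. Of 20 light-harvesting genes 17 rose in the hypocotyl and 19 in the hook, and 0 were called higher and 3 lower in the interaction. All 30 photosystem and electron transport genes rose in both organs, and 0 were called higher and 1 lower in the interaction. LHCB1.4, an antenna protein of photosystem II, was at 1165, 817 and 834 FPKM in pifq hypocotyls, against 9.01, 23.6 and 22.3 FPKM in Col-0 hypocotyls. LHCB1.4 stood at 3172, 2349.8 and 3099.9 FPKM in pifq hooks, against 65.5, 62.1 and 37.3 FPKM in Col-0 hooks. It rose by a log2 of 5.69 in the hypocotyl and 5.71 in the hook without overlap, and the interaction of -0.02 ± 0.46 (adjusted p = 0.983) was not called.

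The called exceptions were all lower. LHCA6, an antenna protein of photosystem I, was at 17.6 ± 6.78 FPKM in pifq hypocotyls, against 11.6 ± 1.66 FPKM in Col-0 hypocotyls, and at 103 ± 27.4 FPKM in pifq hooks, against 26.4 ± 3.48 FPKM in Col-0 hooks, with -1.39 (adjusted p = 0.0169). LHCB4.3, a minor antenna protein, fell in the hypocotyl and rose in the hook, with -0.98 (adjusted p = 0.000285). Its rise in the hook was not called after median-ratio scaling (adjusted p = 0.0764). LHCB2.3 and PSBO2, an antenna protein and a subunit of the oxygen-evolving complex, had -1.42 (adjusted p = 0.034) and -1.22 (adjusted p = 0.036); PSBO2 was not called without replicate 2 or 3 of Col-0 hooks, 2 or 3 of Col-0 hypocotyls, 1 or 3 of pifq hooks, or 2 of pifq hypocotyls, and a further photosystem gene was called lower without replicate 1 of pifq hypocotyls. CP12-2, a regulator of the Calvin cycle, was at 8.8 ± 2.91 FPKM in pifq hypocotyls, against 8.84 ± 1.8 FPKM in Col-0 hypocotyls, and at 41.7 ± 15.3 FPKM in pifq hooks, against 13.3 ± 3.37 FPKM in Col-0 hooks, with -1.57 (adjusted p = 0.0156). GSA1, of chlorophyll synthesis, had -0.85 (adjusted p = 0.00862). The medians of the 4 lists ran from -0.5 to -0.17, with 0 higher and 1 lower of 25 chlorophyll genes, 0 and 3 after median-ratio scaling, and 0 higher and 2 lower of 20 Calvin cycle genes. Without replicate 2 of pifq hooks the lower calls were 10 for chlorophyll synthesis and 5 for the Calvin cycle, and without replicate 1 of Col-0 hooks 5 and 4. For chlorophyll synthesis they were 3 without replicate 1 and 2 without replicate 3 of pifq hypocotyls.

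**Figure D4:**
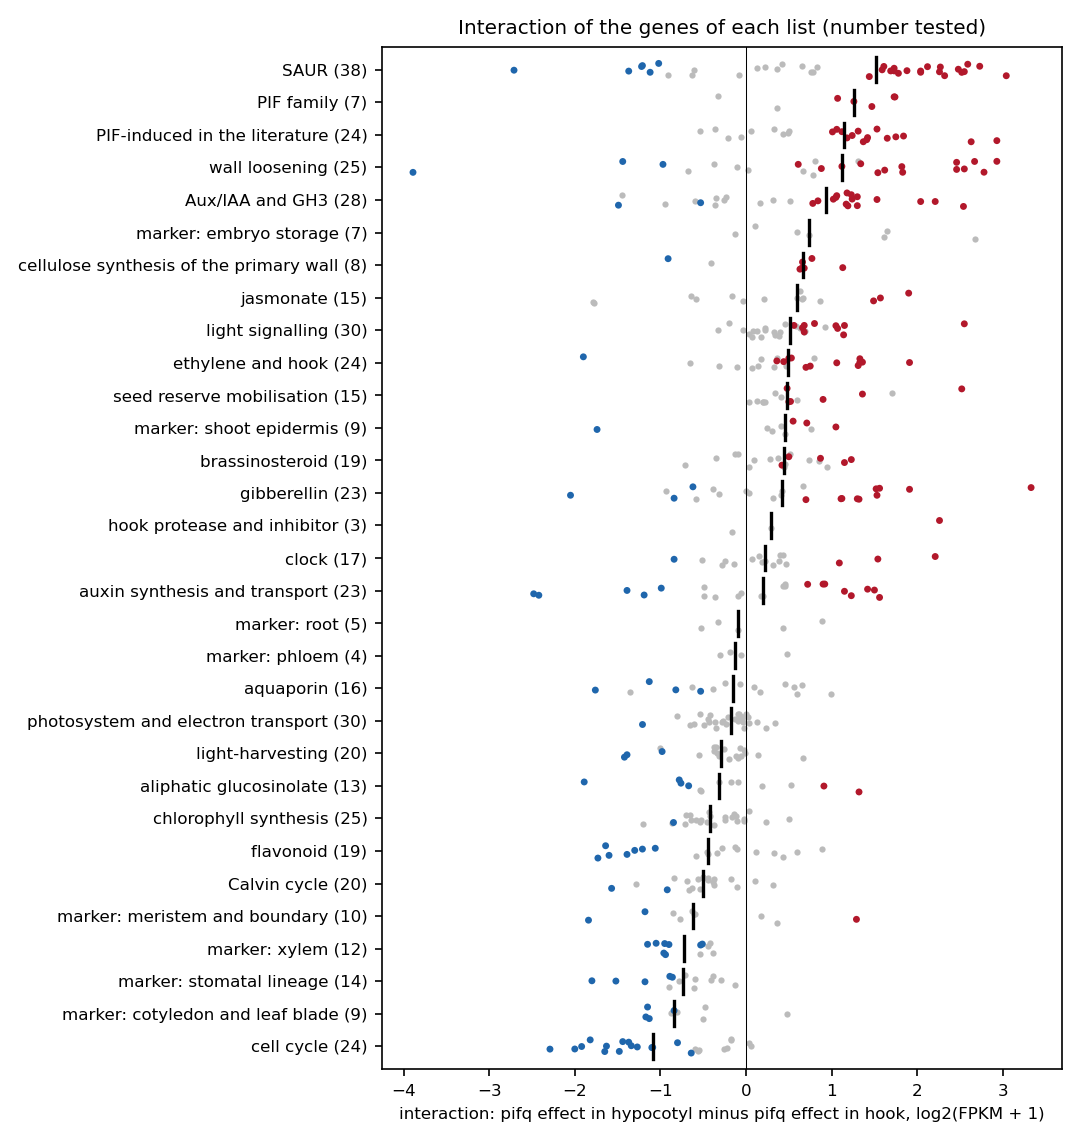
Interaction (x axis, pifq effect in hypocotyl minus pifq effect in hook on the log2(FPKM + 1) scale) of each tested gene of the 31 lists, with the number tested in brackets. Red points are called higher, blue points called lower and grey points not called, and black bars are medians. SAUR genes have the highest median, 1.52, and cell cycle genes the lowest, -1.09.

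Light signalling genes were higher where called. Of 30 tested 10 were called higher and 0 lower (6 and 0 after median-ratio scaling), and the higher count was also 6 without replicate 1 or 3 of Col-0 hooks, 3 of Col-0 hypocotyls, 3 of pifq hooks or 2 of pifq hypocotyls. RUP1, a repressor of the UV-B receptor, was at 7.14, 9.27 and 5.99 FPKM in pifq hypocotyls, against 29.2, 25.1 and 20 FPKM in Col-0 hypocotyls. RUP1 stood at 6.03, 4.22 and 3.45 FPKM in pifq hooks, against 95, 90.1 and 105 FPKM in Col-0 hooks. It fell in both organs without overlap, and the interaction was 2.55 ± 0.27 (adjusted p = 0.000123). HY5, the bZIP factor that promotes light development, was at 33.1, 39.4 and 35.6 FPKM in pifq hypocotyls, against 60.4, 47.4 and 41.5 FPKM in Col-0 hypocotyls. HY5 stood at 41.7, 37.6 and 29.4 FPKM in pifq hooks, against 106, 105 and 118 FPKM in Col-0 hooks. Col-0 hooks stood above the 9 other libraries, and the interaction was 1.14 ± 0.21 (adjusted p = 0.00305). PHYA, the phytochrome of dark-grown seedlings, rose in the hypocotyl and fell in the hook, to 102 ± 5.98 FPKM in pifq hypocotyls, against 82.2 ± 5.4 FPKM in Col-0 hypocotyls, and to 90.2 ± 2.53 FPKM in pifq hooks, against 163 ± 16.1 FPKM in Col-0 hooks, with 1.15 (adjusted p = 0.000221); its rise in the hypocotyl was not called after median-ratio scaling. Among 17 clock genes 3 were called higher and 1 lower, near the shares over all genes of 14.1% and 9.94%; the lower one, CHE, was not called without replicate 1 or 2 of Col-0 hooks, 1 or 3 of Col-0 hypocotyls, 1 or 2 of pifq hooks, or 2 of pifq hypocotyls. PRR9, a morning repressor, was at 4.41, 5.46 and 4.97 FPKM in pifq hypocotyls, against 1.4, 2.43 and 1.3 FPKM in Col-0 hypocotyls, and at 1.22, 1.55 and 1.36 FPKM in pifq hooks, against 5.11, 4.48 and 2.56 FPKM in Col-0 hooks. It rose in the hypocotyl and fell in the hook, with 2.21 ± 0.29 (adjusted p = 0.000403). CCA1 and LHY, the morning factors of the clock, rose in both organs and were not called, at 0.22 and -0.25.

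Metabolic lists differed in direction, while 14.1% of all genes were called higher and 9.94% lower. Of 19 flavonoid genes 0 were called higher and 7 lower (0 and 7 after median-ratio scaling), but voom called 0 higher and 1 lower; 1 was higher without replicate 1 of pifq hypocotyls, 2 of Col-0 hypocotyls or 2 of pifq hooks. DFR, of anthocyanin synthesis, was at 8.26, 10.3 and 15.7 FPKM in pifq hypocotyls, against 0.146, 0.0475 and 0.228 FPKM in Col-0 hypocotyls. DFR stood at 66.1, 60.2 and 87.1 FPKM in pifq hooks, against 0.59, 0.875 and 1.78 FPKM in Col-0 hooks. It rose in both organs and had -1.73 ± 0.34 (adjusted p = 0.00411), but -0.41 (adjusted p = 0.638) with a pseudocount of 0.1; Col-0 stood near 0 in the hypocotyl. TT8, a regulator of anthocyanin genes, had -1.64 (adjusted p = 0.000532). Of 13 aliphatic glucosinolate genes 2 were called higher and 4 lower (2 and 5 after median-ratio scaling, but 0 and 3 with voom), led by the regulator MYB28 at -1.89 (adjusted p = 0.000392) and, in the other direction, BCAT4 at 1.32 (adjusted p = 0.00673), whose Col-0 hooks were listed at 0. With a pseudocount of 0.1 BCAT4 was at 0.87 (adjusted p = 0.481). The 2 higher calls were near the share of 14.1% over all genes. The lower count of 4 was 2 without replicate 2 or 3 of Col-0 hooks, 3 of Col-0 hypocotyls, 2 or 3 of pifq hooks, or 2 of pifq hypocotyls.

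Of 15 jasmonate genes 12 rose in the hypocotyl and 11 in the hook, and 3 were called higher and 0 lower in the interaction (2 and 0 after median-ratio scaling, but 1 and 1 with voom). Over all genes 34.3% rose in the hypocotyl and 35.1% in the hook. The interaction was called higher in 14.1% of all genes and lower in 9.94%. For jasmonate 1 was lower without replicate 1 of pifq hypocotyls, 2 of Col-0 hypocotyls, 2 or 3 of pifq hooks, or 1 of Col-0 hooks. JAZ8, a repressor of jasmonate response, was at 11.8 ± 2.4 FPKM in pifq hypocotyls, against 0.681 ± 0.234 FPKM in Col-0 hypocotyls, and at 1.42 ± 0.738 FPKM in pifq hooks, against 0.15 ± 0.0134 FPKM in Col-0 hooks, with 1.9 (adjusted p = 0.00146), and 1.5 (adjusted p = 0.0723) with a pseudocount of 0.1. OPR3, of jasmonate synthesis, had 1.57 (adjusted p = 0.00692) with a rise called in the hypocotyl. Seed reserve genes gave 6 higher and 0 lower of 15 (4 and 0 after median-ratio scaling). ICL, isocitrate lyase of the glyoxylate cycle, was at 424, 465 and 388 FPKM in pifq hypocotyls, against 592, 1089 and 652 FPKM in Col-0 hypocotyls. ICL stood at 286, 163 and 159 FPKM in pifq hooks, against 1980.5, 2375 and 1649 FPKM in Col-0 hooks. It fell in both organs without overlap, and the interaction was 2.52 ± 0.37 (adjusted p = 0.0008). Of 16 aquaporins 0 were called higher and 4 lower, and the lower count was 2 without replicate 2 or 3 of Col-0 hooks, 1 or 3 of Col-0 hypocotyls, 1 or 3 of pifq hooks, or 1 or 3 of pifq hypocotyls. Without replicate 2 of pifq hooks 2 were called higher, and 1 without replicate 1 of Col-0 hypocotyls or 3 of pifq hypocotyls; with organelle-encoded genes removed there were 1 higher and 2 lower, and with voom 1 and 4. TIP1;1, of the vacuole membrane, was at 955, 968 and 789.7 FPKM in pifq hypocotyls, against 2091, 1507 and 1877 FPKM in Col-0 hypocotyls. TIP1;1 stood at 727, 807 and 805 FPKM in pifq hooks, against 416, 511 and 459 FPKM in Col-0 hooks. It fell in the hypocotyl and rose in the hook, without overlap, with -1.76 ± 0.21 (adjusted p = 0.000258).

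Across all genes, most of the 10 largest lower interactions came from transcripts that were high in Col-0 hypocotyls and fell in pifq hypocotyls. AT2G34700, annotated as a pollen Ole e 1 allergen and extensin family protein, was at 3.87, 3.22 and 1.51 FPKM in pifq hypocotyls, against 205, 138 and 204 FPKM in Col-0 hypocotyls. AT2G34700 stood at 1.71, 4.32 and 3.02 FPKM in pifq hooks, against 3.73, 2.52 and 1.69 FPKM in Col-0 hooks. Only the 3 Col-0 hypocotyls exceeded 5 FPKM, and the interaction was -5.72 ± 0.43 (adjusted p = 2.3e-05). AZI1, a lipid-transfer protein of systemic immunity, was at 27.5, 23.2 and 7.37 FPKM in pifq hypocotyls, against 917, 1106 and 957 FPKM in Col-0 hypocotyls, and at 5.92, 3.88 and 1.72 FPKM in pifq hooks, against 11.9, 8.0 and 4.29 FPKM in Col-0 hooks, with -4.87 ± 0.65 (adjusted p = 0.000435). AT2G25150, a spermidine disinapoyl acyltransferase, AT5G19890, of the peroxidase family, AT4G37220, a cold-regulated membrane protein, AT2G16005, a lipid recognition protein, and AT5G10770, an aspartyl protease, had interactions of -4.21, -4.03, -4.29, -4.22 and -3.91. Each of these 5 fell in the hypocotyl. TLL1, a lipase-like gene, took another form: it was at 241, 223 and 281 FPKM in pifq hypocotyls, against 237, 165 and 259.6 FPKM in Col-0 hypocotyls. TLL1 stood at 117, 152 and 154 FPKM in pifq hooks, against 10.099, 7.64 and 6.07 FPKM in Col-0 hooks. The Col-0 hooks alone were low, and the interaction was -3.81 ± 0.28 (adjusted p = 2.25e-05).

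The 10 largest stable higher interactions with at least 5 FPKM in a group, from 5.81 to 6.88, belonged to 9 chloroplast-encoded genes and 1 small RNA entry without a gene name. Of 115 chloroplast-encoded genes tested 50 were called higher, 33 of them stable, and 0 lower, with a median of 2.14. Of 38 mitochondrion-encoded genes 11 were higher, only 2 of them stable, and 0 lower, with a median of 1.13. Over all genes 14.1% were called higher, and 9.36% were stable higher calls. The share of stable calls among mitochondrion-encoded genes was thus below that over all genes. ATCG00760 was at 236, 306 and 12.3 FPKM in pifq hypocotyls, against 63.8, 53.8 and 80.6 FPKM in Col-0 hypocotyls. ATCG00760 stood at 7.31, 10.7 and 6.77 FPKM in pifq hooks, against 569, 341 and 498 FPKM in Col-0 hooks. The hook groups stood apart, and the hypocotyl groups overlapped, with replicate 3 of pifq far below replicates 1 and 2, with an interaction of 6.24 ± 1.24 (adjusted p = 0.00426). Summed chloroplast-encoded values were 2867, 4307 and 316 FPKM in pifq hypocotyls, against 1951, 3433 and 2433 FPKM in Col-0 hypocotyls. In hooks they were 636, 463 and 643 FPKM in pifq, against 7523, 9991 and 7951 FPKM in Col-0. With organelle-encoded genes removed and the rest rescaled, 3154 genes were called higher and 1626 lower.

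**Figure D5:**
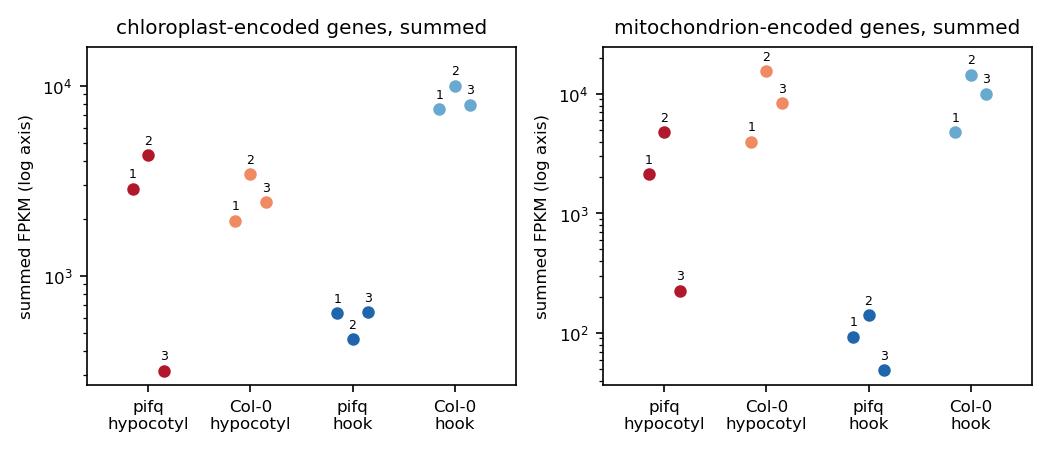
Summed FPKM of chloroplast-encoded genes (left) and mitochondrion-encoded genes (right) in the 12 libraries, on a log axis, with points numbered by replicate. The 3 pifq hooks lie below the 3 Col-0 hooks in both panels, and replicate 3 of pifq hypocotyls lies far below replicates 1 and 2.

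The largest higher interactions of nuclear protein-coding genes were named after their values were seen, because the organelle genes had filled the places of the rule. CLE5, a signalling peptide gene, was at 4.99, 14.8 and 0.979 FPKM in pifq hypocotyls, against 18.7, 18.7 and 16.9 FPKM in Col-0 hypocotyls. CLE5 stood at 0, 0.174 and 0 FPKM in pifq hooks, against 32.9, 59.4 and 50.7 FPKM in Col-0 hooks. Pifq hooks held almost none, and replicate 3 of pifq hypocotyls was the lowest of its group, with an interaction of 3.75 ± 0.76 (adjusted p = 0.00479). AT5G26260, a TRAF-like protein, was at 217, 234 and 281 FPKM in pifq hypocotyls, against 175, 140 and 188 FPKM in Col-0 hypocotyls. AT5G26260 stood at 27.1, 44.5 and 16.3 FPKM in pifq hooks, against 224, 233 and 259 FPKM in Col-0 hooks. It fell in the hook alone, with 3.63 ± 0.38 (adjusted p = 0.000122). AT1G29660, a GDSL lipase, rose in both organs, to 396 ± 72.2 FPKM in pifq hypocotyls, against 16.7 ± 3.53 FPKM in Col-0 hypocotyls, and to 117 ± 38.5 FPKM in pifq hooks, against 44.5 ± 4.41 FPKM in Col-0 hooks, with 3.16 ± 0.32 (adjusted p = 0.000103). The others were GA2OX8 of the gibberellin list, AT4G05631, AT1G04560, AT4G12520, DAA1, ABCG1 and AT5G66400, a dehydrin; their interactions ran from 3.08 for AT5G66400 to 3.61 for AT4G05631, and each fell in the hook. AT4G12520 has a near-identical neighbour, so that its single value is uncertain. AT4G05631 was at 39.6, 67.4 and 5.37 FPKM in pifq hypocotyls, against 34.9, 22.6 and 54.1 FPKM in Col-0 hypocotyls. In hooks AT4G05631 was at 9.11, 7.34 and 8.56 FPKM in pifq, against 216, 100 and 174 FPKM in Col-0. Replicate 3 of its pifq hypocotyls lay far below the others, as in the chloroplast-encoded ATCG00760, and this likeness was not tested.

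In 482 genes the 2 organs had called effects of opposite sign, 353 higher in the pifq hypocotyl and lower in the pifq hook and 129 the reverse; after median-ratio scaling the counts were 226 and 183. XTH7, a wall enzyme like XTH15, was at 136, 123 and 127 FPKM in pifq hypocotyls, against 408, 304 and 375 FPKM in Col-0 hypocotyls. XTH7 stood at 85.5, 106 and 101 FPKM in pifq hooks, against 17.1, 17.2 and 15.7 FPKM in Col-0 hooks. Neither organ's groups overlapped: XTH7 fell in the hypocotyl and rose in the hook, and both pifq groups lay between the Col-0 groups. Its interaction was -3.95 ± 0.17 (adjusted p = 7.54e-07). GH9B18, a glycosyl hydrolase of the endoglucanase family, AT4G11320, a papain-like protease, AT2G43535, a trypsin inhibitor, and PAP17, an acid phosphatase, showed the same form. AT4G11320 was at 255 ± 7.03 FPKM in pifq hypocotyls, against 452 ± 67.3 FPKM in Col-0 hypocotyls, and at 45.8 ± 21.1 FPKM in pifq hooks, against 5.57 ± 2.66 FPKM in Col-0 hooks, and PAP17 at 21 ± 9.99 FPKM in pifq hypocotyls, against 68.2 ± 3.75 FPKM in Col-0 hypocotyls, and at 64.7 ± 18.1 FPKM in pifq hooks, against 25.9 ± 3.73 FPKM in Col-0 hooks.

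CSLC04, which makes the glucan backbone of xyloglucan, was the reverse case. CSLC04 was at 175, 155 and 191 FPKM in pifq hypocotyls, against 58.8, 56.7 and 88.7 FPKM in Col-0 hypocotyls. CSLC04 stood at 32.9, 53.7 and 32.4 FPKM in pifq hooks, against 104, 123 and 137 FPKM in Col-0 hooks. It rose in the hypocotyl and fell in the hook without overlap, with 2.98 ± 0.3 (adjusted p = 0.000103). FLA9, a fasciclin-like arabinogalactan protein of the cell surface, was at 860.1, 794 and 757 FPKM in pifq hypocotyls, against 364, 282 and 430.1 FPKM in Col-0 hypocotyls. FLA9 stood at 170.3, 277 and 124 FPKM in pifq hooks, against 426, 470 and 594 FPKM in Col-0 hooks. Its groups did not overlap either, with 2.62 ± 0.36 (adjusted p = 0.000494). SIGE, a sigma factor of plastid RNA polymerase, was at 15.2 ± 4.63 FPKM in pifq hypocotyls, against 5.35 ± 1.98 FPKM in Col-0 hypocotyls, and at 8.86 ± 0.97 FPKM in pifq hooks, against 23.5 ± 5.08 FPKM in Col-0 hooks, with 2.65 (adjusted p = 0.000543). Further genes of this form were SAUR15, AT5G19110, an aspartyl protease, and AT1G76240, of a family of unknown function, at 3.04, 2.91 and 2.66.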

How the data were processed

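The 12 hypocotyl and hook libraries of the series were analysed. The 6 cotyledon libraries entered only an alternative fit and the sum of blade markers. Trizol served for RNA extraction and DNase I for removal of DNA, per the labels' protocols. The NEBNext Ultra kit named there does not mark strand, so that reads of overlapping antisense genes cannot be separated. The submitters' processing notes list TAIR10 as genome and HISAT2 and DESeq2 as tools without saying what each did; the counting tool and filters are not given in the sources used here. The authors deposited 1 value per gene for 26073 genes in each library. The deposited values are FPKM, a unit read from the values themselves: multiplied by merged exon length in TAIR10.1, 99.37% to 99.49% of values below 100 reads were whole multiples of 1 step per library, within 0.05 reads, for 25788 matched genes. That step gave the depths. The 285 unmatched entries were 128 chloroplast, 108 mitochondrial and 49 small RNA genes. Names, products and coordinates are from the TAIR10.1 annotation by locus.

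From these, log2(FPKM + 1) of genes with at least 1 FPKM in 3 libraries was fitted with limma 3.58.1 in R 4.3.3, with a mean-variance trend, 4 group means and no block. Every adjusted p comes from this limma fit, over the 18994 genes of a contrast, unless a setting is named. The fit was checked on simulated data with known interactions. Median-ratio factors were 0.855 to 1.172. Alternatives were median-ratio scaling, removal of organelle-encoded genes, a pseudocount of 0.1, no filter, at least 5 FPKM in 3 libraries, all 18 libraries, limma-voom on the recovered reads, omission of 1 library at a time and a replicate block. A count test was not the main test, since the files hold no counts.

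Genes named are the PIF loci; the 10 largest higher and 10 largest lower stable interactions with a group mean of at least 5 FPKM; the largest stable call each way in each of 31 gene lists; up to 6 stable genes each way called in opposite directions; and HLS1, SAUR17, SAUR50, HY5, IAA19, XTH15, LHCB1.4 and GASA4. Further list members are given as examples, chosen after their values were seen, and so were the nuclear genes named for higher interactions. The comparison, the lists and the rule were chosen with earlier results of these data known. Of the 553 list genes 550 were in the files and 531 were tested. Some list genes are not reported here.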

Additional observations from a re-analysis of the deposited data

Results flagged for a closer look

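Genes whose pifq effect pointed in opposite directions in the hypocotyl and in the hook stood out, with the difference between the organs tested by the interaction. There were 353 genes called higher in the hypocotyl and lower in the hook, and 129 called lower in the hypocotyl and higher in the hook. The 6 largest stable interactions among the 353, at a mean of at least 5 FPKM in a group, were SAUR15 with an interaction of 3.04, CSLC04 with 2.98, AT5G19110 with 2.91, AT1G76240 with 2.66, SIGE with 2.65 and FLA9 with 2.62. The 6 largest by the same rule among the 129 were XTH7 with -3.95, AT4G11320 with -3.62, GH9B18 with -3.32, AT2G43535 with -3.07, AT1G27030 with -3.00 and PAP17 with -3.00. Each of the 12 interactions is stable because the rule took stable calls only, so that their stability is no separate support. The rule did not ask the same of the 2 organ effects. The largest adjusted p of a hypocotyl effect among the 12 were 0.0465 for AT4G11320, 0.0425 for AT1G76240 and 0.0315 for AT2G43535. In AT5G19110 replicate 2 of pifq hooks was at 9.49 FPKM, against 2.84 and 1.89 FPKM in its partners, and overlapped with Col-0 hooks at 17.7, 10.5 and 8.32 FPKM.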

How the results depend on the processing

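After median-ratio scaling the hypocotyl effect gave 4204 genes higher and 4804 lower in pifq, against 6514 and 2953 without it; the alternative sets the median gene near 0 by its construction. Genes higher in the hypocotyl and lower in the hook were 226 after it, against 353, and those of the reverse form 183, against 129. The counts of higher and lower interactions and of hook calls, and the sum of both opposite forms, moved by less than 1.5 times under every alternative run; counts within lists moved more, as given beside them. Without each library in turn the interaction gave 1931 to 2937 higher and 1311 to 1809 lower genes, and 335 to 540 genes had opposite effects. Limma-voom on recovered reads gave 2552 higher and 1306 lower. With it 3 named genes changed sign, none of them called there: GH3.9 at 0.33 (adjusted p = 0.825), DFR at 0.11 (adjusted p = 0.961) and BCAT4 at -0.50 (adjusted p = 0.819). All 3 had values near 0 in a Col-0 group, and the cause was not tested. A pseudocount of 0.1 took the call from 7 of 86 named genes and voom from 12 of the 76 it could fit. Same-numbered libraries moved together in many pairs but not in all. Of 18 such pairs 10 had a correlation of deviations over 0.1, and the range was -0.202 to 0.25. Pairs of unlike number ran lower, from -0.29 to 0.177. Deviations from a group mean sum to 0, which ties these pairs to those of like number, so that this range is no separate evidence. The labels do not say what the numbers share, this was not tested, and the main fit did not use the numbers as pairs. With the replicate block the interaction gave 2684 higher and 1929 lower genes. PIF7, not called in any fit named here, was at 0.54 with that pseudocount and 0.94 with voom. Beside GH3.9, DFR and BCAT4, the genes that lost their call with voom were AT2G16005, AT5G19890, GA2OX7, JAZ8, AT1G72290, BASL, SAUR17, CLE5 and AT5G66400. IAA19 and GASA4 lost theirs after median-ratio scaling, with no filter, with all 18 libraries and with the block. The median SE of an interaction was 0.21, so that differences of that size were not detectable with 3 libraries a group.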

Other observations

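Embryo storage transcripts, of seed proteins and oil bodies, varied widely between replicates of Col-0 hypocotyls. Their summed level was 9.44, 14.8 and 155.2 FPKM in the Col-0 hypocotyl libraries, in rising order, against 4.97 to 13.4 FPKM in pifq hypocotyls. In hooks it was 0.962 to 2.62 FPKM in pifq and 45.1 to 91.5 FPKM in Col-0. Without replicate 2 of Col-0 hypocotyls 4 of the 7 tested storage genes were called higher in the interaction, against 0 with all libraries. PYK10, a beta-glucosidase of ER bodies known from roots and dark-grown seedlings, made up most of the summed root markers, at 8932 ± 773 FPKM in pifq hypocotyls, against 7221 ± 604 FPKM in Col-0 hypocotyls, and at 2966 ± 361 FPKM in pifq hooks, against 3211 ± 152 FPKM in Col-0 hooks; its interaction of 0.43 (adjusted p = 0.23) was not called.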
